A study of Sus scrofa with 14 samples.

Results

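Interleukins are secreted proteins through which cells of the immune system and of the gut lining signal to each other, and their receptors are the membrane proteins that receive these signals. The genes described here are those with a symbol of IL followed directly by a digit, cytokines and receptors alike. Membership followed the name and not any measured value, while the family itself was chosen with earlier results of these data known. Of 3020 genes that could be named on the pig array, 35 met this rule, 21 of them cytokines and 14 receptors, and they were covered by 50 of 6686 named probes. The reference lists 79 pig genes with such a symbol, and the 44 others, among them IL22, IL33, IL10RA, IL17RA and IL1R1, had no probe named here and were not analysed. Where a gene had several probes, the probe with the highest mean signal stood for it.

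The samples were mucosal scrapings of jejunum segments of 7 male piglets of 5 weeks, taken from the small intestinal segment perfusion (SISP) model. In this model, loops of gut keep their blood supply and nerves in the anaesthetised animal and are filled and perfused through tubes. Segments were filled with 20 ml of a digest, perfusion started after 30 min and lasted 6 h, and the segments lay at 31 to 58% of the length of the small intestine. Each pig gave 1 control segment that received saline digest (Sd), a digestion mixture made without onion, and 1 segment that received an onion digest. This was yellow onion digest (YOd) in pigs 1, 2 and 4 and white onion digest (WOd) in pigs 5, 6, 7 and 8, so that onion type was compared between animals and onion with Sd within animals. According to the methods, the onion digests were diluted in peptone and the Sd in a saline solution with glucose and amino acids, and the dilutions differed, so that onion and its diluent cannot be told apart. The scrapings held mainly epithelial and other mucosal cells, and in such mixed tissue fewer cells of a type and less RNA per cell cannot be told apart.

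RNA of each segment was hybridised to 1 array of 1 colour, 14 arrays in all. Levels are log2 ratios of a probe's signal to the 75th percentile of its array, and values under a floor of -4.43 were raised to that floor. The share of probes well above background was lowest on the Sd array of pig 8 (50.05%, against up to 70.7% elsewhere), which also had the most outlier spots (462, against a median of 53.5). The Sd arrays of pigs 2 and 7 lay on a slide of their own, apart from the onion arrays of the same pigs, and were scanned in another session. In the other 5 pigs both arrays lay on 1 slide. Epithelial markers (6 of 12 had a named probe, all 6 well above background on all 14 arrays, among them EPCAM, CDH1 and FABP2) had a summed level of 487 to 908 times the 75th percentile on Sd arrays and of 646 to 914 on onion arrays. None of the 35 genes was saturated on any array. Precision is limited by how few arrays there were.

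The question was first which interleukins and receptors were measured in the mucosa at all. Of the 35 genes, 15 had a probe well above background on all 14 arrays, which was 42.9% of them against 69.8% of all named genes. Among the cytokines these were IL1B, IL1B2 and IL18 of the IL-1 family, IL7 and IL15, IL5, IL27, IL10, IL29 and IL16. Among the receptors they were IL4R, IL13RA1, IL6ST, IL12RB1 and IL10RB. A further 7 genes were detected on 8 to 13 arrays. IL13RA2 and IL2RG were detected on 13 arrays and IL7R on 12. IL1A, IL6R and IL18R1 were each detected on 11 arrays, and IL6, with 4 Sd and 5 onion arrays, on 9.

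The remaining 13 genes were well above background on at most 5 arrays. IL17A, the cytokine that defines Th17 cells, and IL23A, which sustains them, were not well above background on any array, and the same held for IL12A, a Th1 inducer, and IL9. IL12B, the subunit shared by IL-12 and IL-23, was detected on 5 arrays. IL4, the Th2 cytokine, was detected on 4, and IL2RA, the inducible chain of the IL-2 receptor, on 3. IL2 and IL12RB2 were each detected on 2 arrays, and IL13, IL21, IL23R and IL1RAPL1 on 1 each. All of these genes were above the floor on at most 3 arrays. IL13 was above it on the Sd array of pig 4 alone (-3.40) and IL23R on the Sd array of pig 7 alone (-2.20). A gene that is not well above background here is dim for this probe, which does not show that its RNA was absent.

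**Figure D1:**
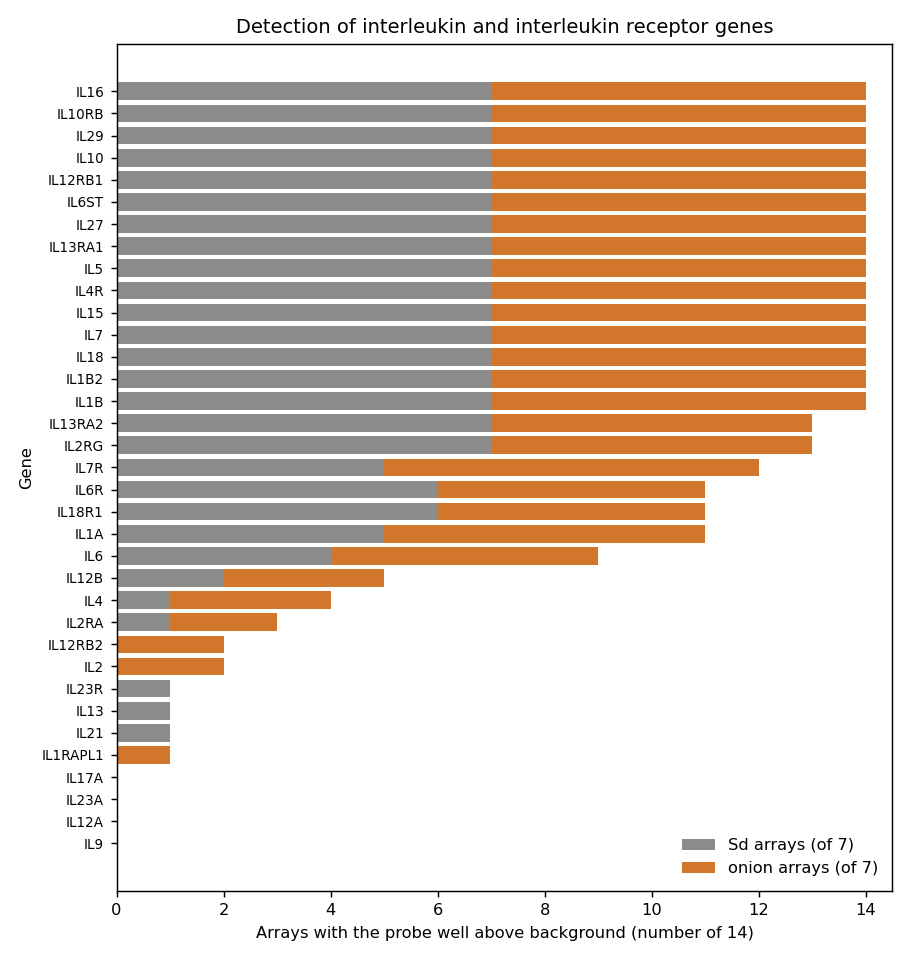
Number of arrays, of 14, on which the probe of each of the 35 genes was well above background, with Sd arrays in grey and onion arrays in orange. The bars reach 14 for 15 genes and stay at 0 for IL17A, IL23A, IL12A and IL9.

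Several of the genes are neighbours in the genome. In the reference annotation IL1A and IL1B lie next to each other, as do IL2 and IL21 and also IL4 and IL13, with 2 genes between IL13 and IL5. IL1B was detected on 14 arrays and IL1A on 11, and in the Th2 locus IL5 was detected on 14 arrays, IL4 on 4 and IL13 on 1. IL5, the growth factor of eosinophils, had a second probe that was well above background on 9 arrays.

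Whether onion digest changed these genes was asked over all 7 pigs, with each onion segment set against the Sd segment of the same pig. A gene counted as affected when its unadjusted limma p was below 0.05 and its fold change above 1.5. Of the 35 genes, 22 were above the floor on enough arrays to be tested, and these 22 are not the whole family. None of the 22 was affected by onion over Sd, where 1.25% of the 2400 genes tested over the whole array were affected. At the unadjusted p alone, 1 of the 22 passed (IL6), against 7.04% of all genes. No gene of the array passed after Benjamini-Hochberg adjustment of limma's p in this comparison, and the adjusted p of the 22 genes ranged from 0.644 to 0.998.

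The median log2 ratio of the 22 genes was 0.06, beside 0.09 for all genes tested. The ratio was above 0 for 14 of the 22 genes and under 0 for 8. Without scaling between arrays, which moved the median of all genes to -0.06, it was above 0 for 5 and under 0 for 17. The 95% interval of the ratio lay within a 1.5-fold change in either direction for 18 of the 22 genes, 81.8%, beside 80.25% of all genes. The exceptions were IL6, IL1B, IL29 and IL13RA2, whose intervals reached past it. Some of the 18 genes, among them IL6R, IL7R and IL2RG, had values on the floor, which can narrow an interval. Without the floor IL7R went from 0.23 (SE 0.12) to 0.26 (SE 0.21), and IL2RG from -0.25 (SE 0.13) to -0.27 (SE 0.13). The intervals of such dim genes do not bound the change of their RNA. No gene had the same sign in all 7 pigs.

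**Figure D2:**
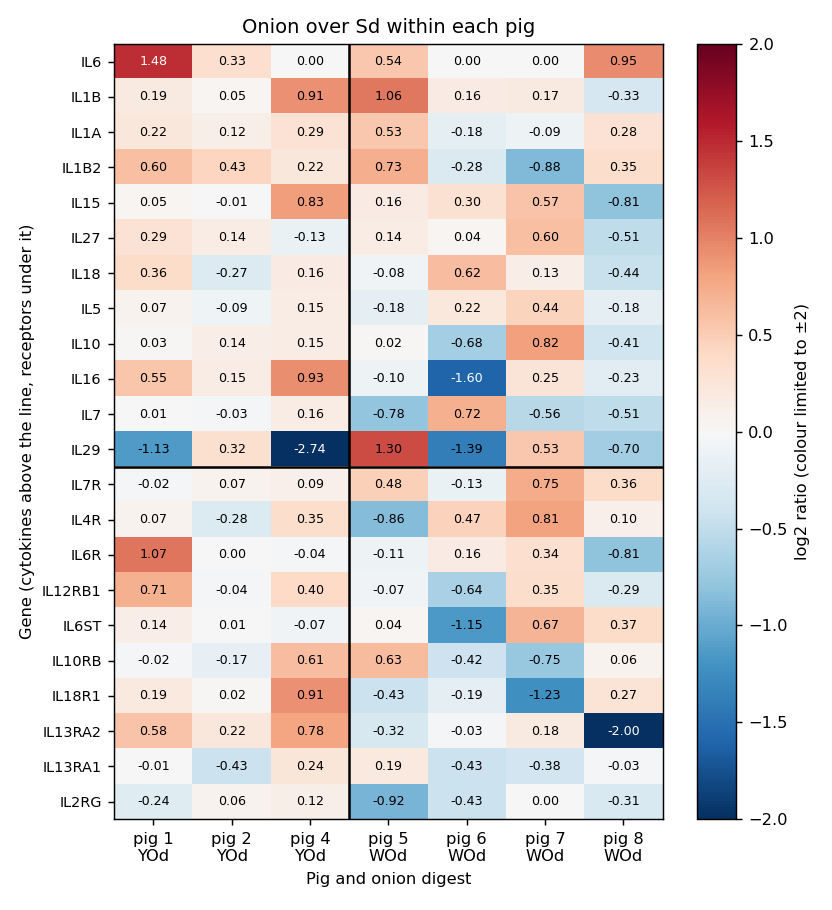
Log2 ratio of the onion over the Sd segment in each pig (columns) for the 22 tested genes (rows, cytokines above receptors, each ordered by the mean ratio), red for higher and blue for lower in the onion segment. Every gene except IL6 has ratios of both signs, and IL6 has 3 ratios of 0.00 where both segments were on the floor.

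The 3 largest increases over the 7 pigs were those of IL6, IL1B and IL7R. IL6, an acute inflammatory cytokine that also acts on B cells, had Sd levels from -4.43 to -2.99 with a median of -4.17. On YOd arrays it was at -2.69 in pig 1, -2.66 in pig 2 and on the floor in pig 4, and on WOd arrays at -3.22 in pig 5, -2.75 in pig 8 and on the floor in pigs 6 and 7. It was thus higher in the onion segment in 4 of 4 pigs in which it was above the floor, with log2 ratios of 1.48, 0.33, 0.54 and 0.95 in pigs 1, 2, 5 and 8. In pigs 4, 6 and 7 it was on the floor in both segments, where values have no order, and the 2 groups overlapped.

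The mean log2 ratio of IL6 was 0.47 (SE 0.18), with a 95% interval of 0.06 to 0.88, and it missed the fold threshold. Its adjusted p with limma was 0.644. With the arrays of pigs 2 and 7 left out the ratio was 0.59 (SE 0.22), which passed both thresholds beside 3.2% of 2435 genes, and its adjusted p was 0.395. Without pig 1 it was 0.30 (SE 0.15), and with normexp background correction, the authors' log2 values or the mean of all probes it was 0.19, 0.18 or 0.24, all of them past neither threshold. The floor set the IL6 ratio to 0 in pigs 4, 6 and 7, and without a floor the mean was 0.56 (SE 0.32). With a floor at the 20th percentile it was 0.56 (SE 0.34), and neither value passed either threshold. A second IL6 probe, detected on 4 arrays, had a ratio of 0 in every pig. The IL-6 receptor chain IL6R lay close to the floor, with Sd levels between -4.43 and -3.62, and its ratios ran from -0.81 to 1.07.

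IL1B, the inflammasome-processed cytokine of macrophages, was higher in the onion segment in 6 of 7 pigs. Its Sd levels had a median of -1.15, a lowest value of -1.72 (pig 6) and a highest value of 0.07 (pig 8). On YOd arrays it was at -0.96, -1.18 and 0.15 in pigs 1, 2 and 4, and on WOd arrays at -0.09, -1.55, -0.998 and -0.25 in pigs 5, 6, 7 and 8. The onion and Sd values overlapped, and most of the mean came from pig 4, with a ratio of 0.91, and pig 5, with 1.06. The mean log2 ratio was 0.31 (SE 0.16) with an adjusted limma p of 0.651.

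IL1B2 is a second, closely related IL1B gene of the pig, and hybridisation of RNA of either gene to the probe of the other was not tested. Its ratios did not follow those of IL1B, with -0.88 in pig 7 where IL1B had 0.17, and 0.22 in pig 4 where IL1B had 0.91. The mean log2 ratio of IL1B2 on the brightest probe was 0.17 (SE 0.18). IL1A, the neighbour of IL1B and an alarm signal of damaged cells, had ratios from -0.18 to 0.53.

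IL18, an IL-1 family cytokine that gut epithelium makes at rest, was the member with the narrowest range of Sd levels among the 15 genes detected on every array. They ran from 4.22 to 4.69 with a median of 4.51 and an SD of 0.18 (n = 7). Its ratios were 0.36, -0.27 and 0.16 in pigs 1, 2 and 4 and -0.08, 0.62, 0.13 and -0.44 in pigs 5, 6, 7 and 8. The mean log2 ratio was 0.07 (SE 0.13), with a 95% interval of -0.23 to 0.37. A second probe of IL18, also well above background on all arrays, gave a mean ratio of 0.06 and differed from the first by at most 0.38 in any pig. IL18R1, which binds IL-18, was near the floor on several arrays, and its ratios ran from -1.23 in pig 7 to 0.91 in pig 4.

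Of the 10 genes of the common gamma chain family, which keeps lymphocytes alive and dividing, 5 were tested for onion over Sd. None of the 5 was affected, beside 1.25% of all genes, so that this count does not set the family apart. IL15, a survival factor of intraepithelial lymphocytes and natural killer cells, was higher in the onion segment in 5 of 7 pigs, with ratios of up to 0.83 in pig 4 and 0.57 in pig 7, and it was lower in pig 8 (-0.81). Both of its probes were detected on every array and gave mean ratios of 0.16 and 0.14. IL7, a survival factor of naive and memory T cells, had Sd levels from -2.77 in pig 1 to -0.03 in pig 8. Its ratios lay between -0.03 and 0.16 in the YOd pigs and between -0.78 and 0.72 in the WOd pigs, and the mean of -0.14 (SE 0.17) was the third of the 3 largest decreases.

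IL7R, the receptor chain for IL-7, had ratios of -0.02, 0.07 and 0.09 in the YOd pigs and 0.48, -0.13, 0.75 and 0.36 in the WOd pigs. Its mean of 0.23 (SE 0.12) did not pass, with an adjusted limma p of 0.651, and its second probe, detected on 8 arrays, had a mean ratio of -0.03. IL2RG, the common gamma chain itself, had the second largest decrease, with a mean of -0.25 (SE 0.13) and the same adjusted p of 0.651. It was lower in the onion segment in 4 pigs, with a ratio of -0.92 in pig 5, and on the floor in both segments of pig 7. Its second probe, detected on 8 arrays, had a mean ratio of -0.01.

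IL4R, the receptor chain shared by IL-4 and IL-13, had its lowest ratio in pig 5 (-0.86) and its highest in pig 7 (0.81), and its mean was 0.09 (SE 0.18). IL13RA1, its partner in the IL-13 receptor, had a mean of -0.12 (SE 0.12) and ratios from -0.43 to 0.24. IL5 varied little within pigs, with ratios from -0.18 to 0.44 and a mean of 0.06 (SE 0.11). Its second probe had a mean ratio of -0.08, with -0.56 in pig 7, where the brighter probe had 0.44.

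In the IL-6 and IL-12 family, IL6ST is the signal-transducing chain (gp130) that IL-6, IL-11 and IL-27 share. On 6 of the 7 Sd arrays it lay between 1.18 and 1.75, and on that of pig 6 at 2.70, while all onion arrays lay between 1.22 and 1.94. Its ratio was -1.15 in pig 6 and lay between -0.07 and 0.67 elsewhere. The second IL6ST probe gave -1.14 in pig 6 as well, and elsewhere between -0.10 and 0.22. The mean log2 ratio was 0.0023 (SE 0.18), and without pig 6 it was 0.19 (SE 0.13). The Sd array of pig 6 also stood apart in the summed level of B and plasma cell markers (3 of 8 had a named probe, none of them well above background on all 14 arrays), with 3.47 against 0.0695 to 0.295 on the other Sd arrays and 0.0545 to 0.357 on onion arrays. Its part in the IL6ST value was not tested. IL27, a cytokine of antigen-presenting cells, had a mean of 0.08 (SE 0.13), and IL12RB1, the receptor chain for IL-12 and IL-23, a mean of 0.06 (SE 0.16).

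IL29, a lambda interferon by which epithelium signals viral infection, varied more than any other tested member, and its SD over the 7 Sd arrays was 1.57. The Sd level reached 1.48 in pig 4 and 0.22 in pig 6, and lay between -2.86 and -1.22 in the remaining 5. The YOd levels were -2.91, -2.32 and -1.27 in pigs 1, 2 and 4, and the WOd levels were -1.56, -1.16, -1.34 and -1.92 in pigs 5, 6, 7 and 8. The onion arrays thus lay within a narrower range than the Sd arrays, and the groups overlapped.

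Within pigs, IL29 was lower in the onion segment in 4 pigs, with log2 ratios of -1.13, -2.74, -1.39 and -0.70 in pigs 1, 4, 6 and 8. It was higher in pig 2 (0.32), pig 7 (0.53) and pig 5 (1.30). The mean was -0.54 (SE 0.40), the largest decrease among the tested members, with a 95% interval of -1.44 to 0.35. With pig 5 left out it was -0.85 (SE 0.37), which passed both thresholds beside 0.791% of 2401 genes, with an adjusted limma p of 0.639. With pig 4 left out it was -0.18 (SE 0.34) and passed neither. IL10, the anti-inflammatory cytokine, had a mean of 0.01 (SE 0.16) with ratios from -0.68 in pig 6 to 0.82 in pig 7. A second IL10 probe, detected on 10 arrays, had a mean ratio of -0.09 and a ratio of 0 in both of these pigs. IL10RB, the receptor chain that IL-10, IL-22 and lambda interferons share, had a mean of -0.01 (SE 0.17) with ratios from -0.75 in pig 7 to 0.63 in pig 5.

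IL16, a chemoattractant for CD4 T cells, had Sd levels from 0.20 to 1.90 with a median of 1.42. The YOd levels were 1.03, 1.64 and 1.38, and the WOd levels 1.79, -0.18, 0.45 and 1.64. Its ratios were 0.55, 0.15 and 0.93 in the YOd pigs and -0.10, -1.60, 0.25 and -0.23 in the WOd pigs, so that the mean over both onions was -0.01 (SE 0.25).

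**Figure D3:**
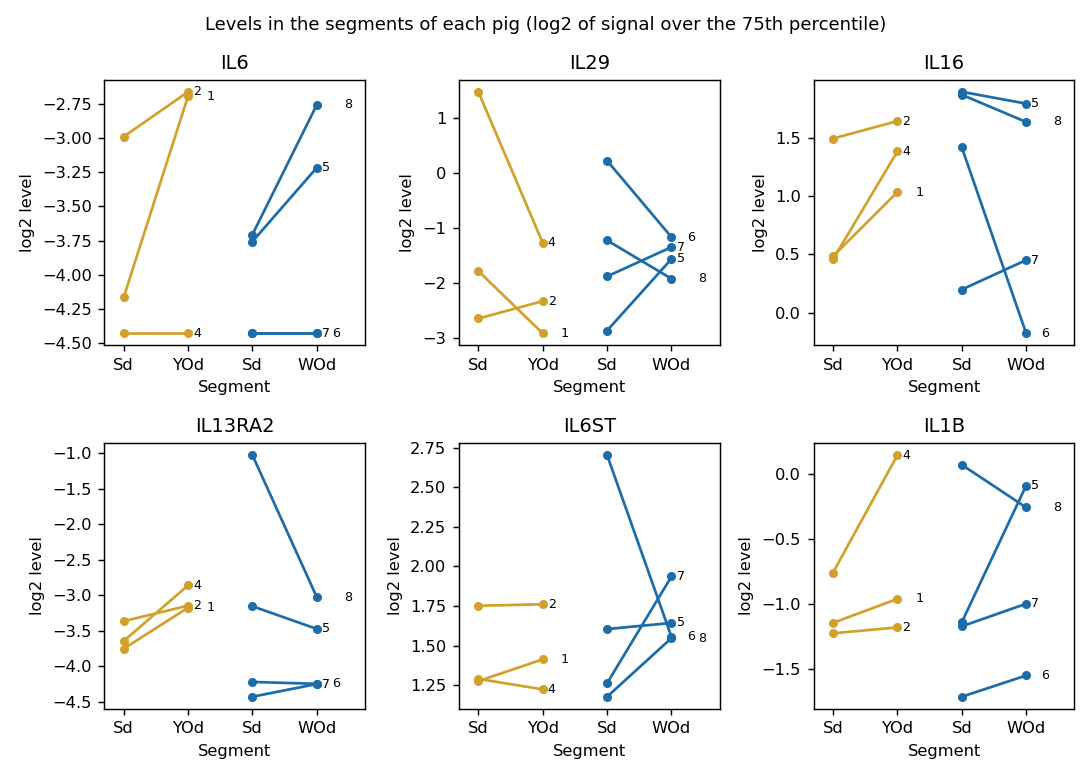
Log2 levels of 6 genes in the Sd and onion segment of each pig, joined by a line and numbered by pig, for yellow (YOd) and white (WOd) onion. Single Sd arrays stand out at the top for IL29 (pig 4, 1.48), IL6ST (pig 6, 2.70) and IL13RA2 (pig 8, -1.03), and IL6 is on the floor of -4.43 in both segments of pigs 4, 6 and 7.

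The effect of each onion type was then asked on its own pigs. With YOd, none of 22 tested genes was affected, where 4.45% of the 2449 genes tested over the array were. At the unadjusted limma p alone, 3 of the 22 passed (IL13RA2, IL16 and IL1B2), beside 10.9% of all genes. All of these were higher with YOd in 3 of 3 pigs, and each missed the fold threshold. The log2 ratio was 0.54 (SE 0.18) for IL16, 0.53 (SE 0.16) for IL13RA2 and 0.42 (SE 0.15) for IL1B2, and the adjusted limma p of each was 0.389. The median over the 22 genes was 0.12, beside 0.14 for all genes, and 19 of them were above 0. Without scaling between arrays 8 of the 22 were above 0.

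The YOd ratio of IL29 was -1.19 (SE 0.51), with a 95% interval of -2.43 to 0.05. Its ratio was above 0 in pig 2 and under 0 in pigs 1 and 4. With pig 2 left out, IL29 passed with -1.94 (SE 0.34) and an adjusted limma p of 0.0401, and IL16 (0.74, SE 0.19) and IL13RA2 (0.68, SE 0.19) passed the unadjusted p and the fold threshold. That fit rests on pigs 1 and 4. It called 13% of 2483 genes, and 1.65% of them passed after adjustment. With pig 4 left out, IL29 was at -0.41 (SE 0.36), IL16 at 0.35 (SE 0.19) and IL13RA2 at 0.40 (SE 0.18), and none of these passed either threshold. With pig 1 left out the IL29 ratio was -1.21 (SE 0.64), and it missed the unadjusted p.

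With WOd, none of 22 tested genes was affected, beside 1.19% of 2429 genes, and none passed the unadjusted p, beside 2.63%. After adjustment no gene of the array passed. The ratios of the 22 genes ranged from -0.54 for IL13RA2 to 0.37 for IL6, with a median of -0.04 beside 0.05 for all genes. Here 9 genes were above 0 and 13 under 0. The intervals of 5 genes (IL13RA1, IL18, IL1A, IL27 and IL5) lay within a 1.5-fold change, 22.7% of the 22 beside 55% of all genes. With YOd those of 11 of the 22 did, 50% beside 47.4%. With pig 6 left out, IL7 passed both thresholds with -0.62 (SE 0.20), beside 1.81% of 2429 genes, and its adjusted limma p was 0.998. With pig 5, 7 or 8 left out its ratio was -0.12, -0.19 or -0.21.

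**Figure D4:**
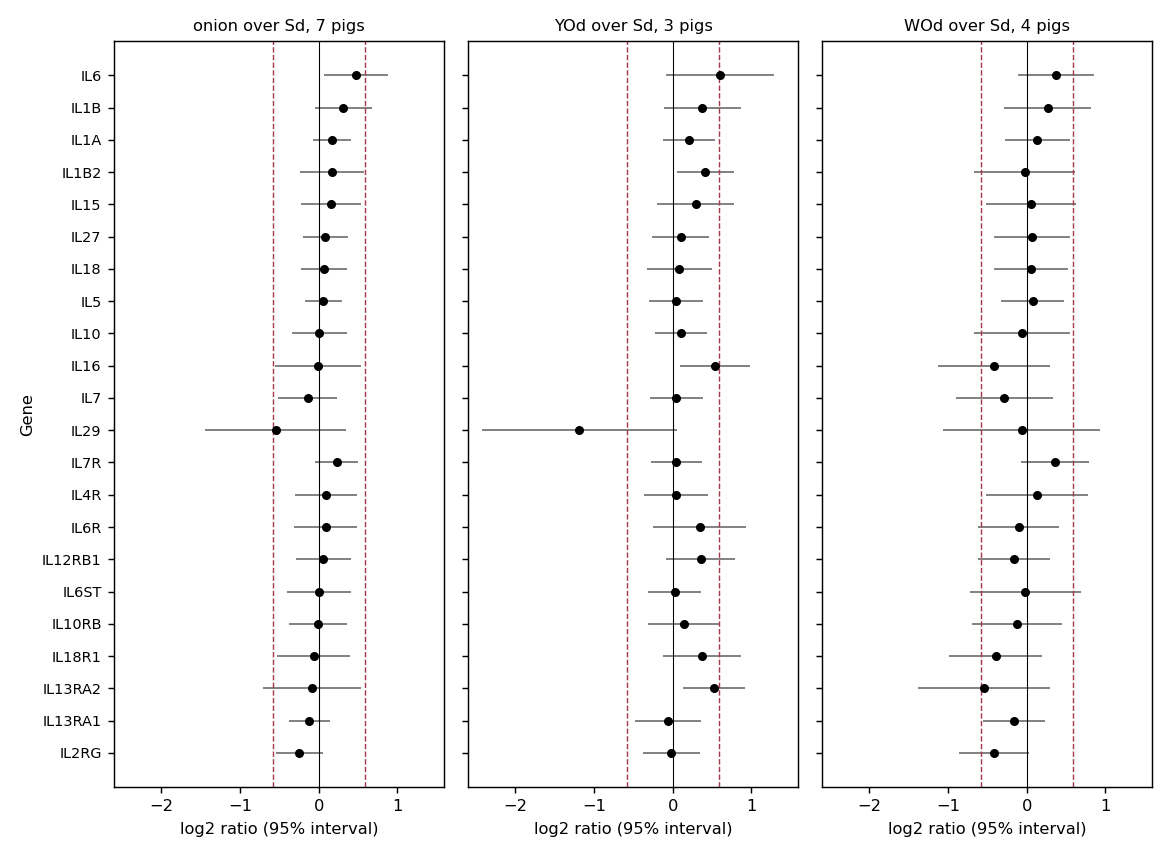
Log2 ratio of onion over Sd with its 95% interval from limma for the 22 tested genes, over all 7 pigs and for each onion type, with dashed lines at a 1.5-fold change. In the 7 pigs the intervals of 18 genes stay between the dashed lines, and that of IL29 is the widest, from -1.44 to 0.35.

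The difference between both onions was tested itself, by subtracting the WOd effect from that of YOd. None of 23 tested genes was affected, beside 3.4% of 2502 genes, and none had an unadjusted p below 0.05, beside 4.04%. The largest differences were 1.07 (SE 0.49) for IL13RA2, with a 95% interval of -0.04 to 2.17, and -1.12 (SE 0.79) for IL29. For IL16 the difference was 0.96 (SE 0.42), with a 95% interval of -0.00068 to 1.93 and an adjusted limma p of 0.859. The intervals were wide, and that of 1 gene, IL5, lay within a 1.5-fold difference, 4.35% of the 23 beside 13.4% of all genes, so that these values do not show that the onion types acted alike.

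Single pigs carried part of these differences. IL13RA2, a decoy receptor that takes up IL-13, had Sd levels between -4.43 and -3.16 in 6 pigs and -1.03 in pig 8, and its ratio in pig 8 was -2.001 against -0.32 to 0.18 in the other WOd pigs. A second IL13RA2 probe, detected on 2 arrays, had a ratio of -0.06 in pig 8 and of 0 in every other pig. On the brighter probe the onion levels of IL13RA2 lay between -4.25 and -2.86. Without pig 8 the difference between the onions was 0.58 (SE 0.24), which passed the unadjusted limma p and missed the fold threshold. With pig 6 or pig 7 left out it was 1.24 (SE 0.51) or 1.31 (SE 0.48). Both passed the unadjusted p and the fold threshold, beside 82 of 2484 and 111 of 2497 genes. No gene passed after adjustment in these 3 fits. For IL16 the WOd mean of -0.42 (SE 0.30) came to -0.03 (SE 0.21) without pig 6, and the difference between the onions fell from 0.96 to 0.57 (SE 0.27). With pigs 2 and 7 left out, IL13RA2, IL16 and IL12RB1 passed the unadjusted p and the fold threshold for the difference, beside 7.63% of 2544 genes, and none of the 2544 passed after adjustment.

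Pigs differed from each other more than the segments of a pig did. For each gene, the absolute log2 difference between the Sd segments of all 21 pairs of pigs was set beside that between the Sd and the onion segment of a pig. The median over the 22 genes was 0.67 between pigs and 0.26 within pigs. For all 2400 genes it was 0.42 between pigs and 0.23 within pigs. The difference was larger between pigs than within them for 18 of the 22 genes, 81.8%, beside 85.5% of all genes. It was 7.59 times as large for IL27, 5.06 times for IL10 and 5.01 times for IL5. For IL18, IL1B2, IL4R and IL6R it was smaller between pigs than within them, at 0.68, 0.70, 0.96 and 0.42 times, and IL6R was on or near the floor on most arrays. Most pairs of Sd arrays lay on different slides. Over the 22 genes the median difference was 0.57 for pigs 2 and 7 and 1.00 for pigs 6 and 8, the pairs that shared a slide, and from 0.25 to 0.93 for the 19 pairs that did not.

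**Figure D5:**
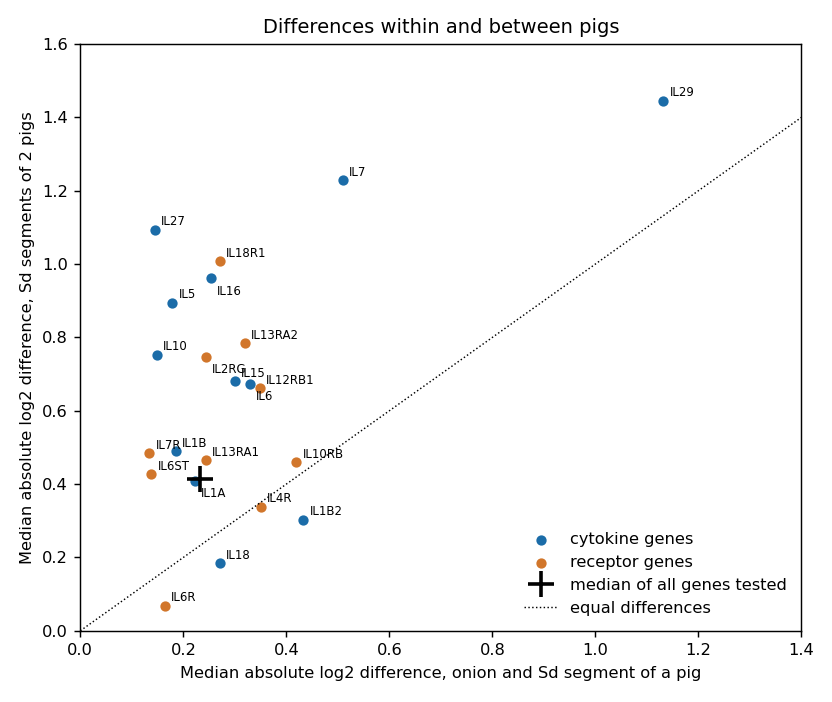
Median absolute log2 difference between the Sd and onion segments of a pig (x axis) and between the Sd segments of 2 pigs (y axis) for the 22 tested genes, with cytokines in blue, receptors in orange and the median of all genes tested as a cross. The points of 18 genes lie above the dotted line of equal differences, with IL27 at 1.09 between and 0.14 within pigs.

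Over single pigs, between 5 and 8 of the 22 genes differed by more than 1.5-fold between the segments, except in pig 2, where none did. The number was 5 (22.7%) in pig 1 beside 15.2% of all genes, and 7 each (31.8%) in pigs 4, 5 and 6 beside 24.2%, 16.7% and 16.1%. It was 8 (36.4%) in pig 7 beside 18.8% and 5 (22.7%) in pig 8 beside 12.3%. In each of these pigs the share was higher among the 22 genes than among all genes, and the reason was not tested. In pig 2 the share of all genes was 2.71%. The genes and directions differed between pigs. In pig 4 IL16, IL15 and IL1B were among 6 genes that were higher by more than 1.5-fold, and in pig 6 IL16, IL6ST and IL10 were among 5 that were lower. In pig 7, whose arrays lay on different slides, IL10 and IL4R were higher and IL1B2 and IL10RB lower. For IL10 this held for the brighter probe, while its second probe had a ratio of 0 in pigs 6 and 7.

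The Sd array of pig 8 held the highest Sd level for 6 of the 15 genes detected on every array (40%), among them IL1B, IL7, IL15, IL27 and IL10, beside 18.5% of the 2109 named genes detected on every array. This array also had the lowest share of probes above background and the most outlier spots. The part of these measures in the levels was not tested.

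Summed levels of cell type markers were set beside the levels and ratios of the genes. The summed level of T cell markers (8 of 12 had a named probe, 7 of them well above background on all 14 arrays, with CD3D, CD3E and CD3G among these) was 23.4, 18.6, 13.7, 8.76, 8.72, 5.61 and 4.91 on the Sd arrays of pigs 5, 8, 2, 1, 4, 6 and 7. In the same order of pigs, the IL2RG level on Sd arrays was -2.19, -2.82, -3.37, -3.76, -3.56, -3.84 and on the floor. The order of the pigs was thus the same except for pigs 1 and 4, whose T cell sums were close. IL2RG was singled out after its values were seen. The sums ranged from 4.27 to 21.6 on onion arrays.

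Within pigs, the log2 ratio of the T cell sum was 0.44, -0.03 and 0.68 in the YOd pigs 1, 2 and 4 and -0.12, -0.39, 0.53 and -0.44 in the WOd pigs 5, 6, 7 and 8. IL12RB1, which T and natural killer cells carry, had the same sign as this ratio in 7 of 7 pigs, with 0.71, -0.04, 0.40, -0.07, -0.64, 0.35 and -0.29 in the same order. Of the 2400 genes, 32 had the sign of the T cell ratio in all 7 pigs. IL16, IL18, IL5 and IL13RA2 had the same sign in 6 of 7 pigs. Of the 22 genes, 22.7% had the same sign in 6 or 7 pigs, beside 9.58% of all 2400 genes. IL2RG did not follow the T cell sum within pigs, with ratios of -0.24, 0.06 and 0.12 in the YOd pigs and of -0.92, -0.43 and -0.31 in pigs 5, 6 and 8, so that its sign was opposite in pigs 1 and 2. IL16 and IL13RA2 also shared the sign of the epithelial sum in 6 of 7 pigs, as did IL18R1, together 13.6% of the 22 genes beside 10.4% of all genes. The ratio of the sum of 5 markers of innate lymphocytes (of 8, 4 of them on all 14 arrays, among them NKG7 and GZMB) had the same sign as IL15 in 7 of 7 pigs. In pig 2 both were close to 0, at -0.008 for the sum and -0.007 for IL15. Of the 2400 genes, 91 had the sign of this sum in all 7 pigs. In 6 or 7 pigs the sign of the sum was shared by 18.2% of the 22 genes, beside 19.1% of all genes. IL15 and IL4R shared the sign of the myeloid sum in 6 of 7 pigs, together 9.09% of the 22 genes beside 12.3% of all genes. In pig 6, which is among the 6 for both genes, the log2 ratio of the myeloid sum was 0.00017, so that its sign there means little. The part of lymphocytes, myeloid cells and epithelium in these ratios was not tested.

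Genes that act downstream of the receptors were taken from a list of 31 signalling genes (Janus kinases, STAT and SOCS proteins and adaptors of the IL-1 receptors), of which 20 had a named probe and 17 were well above background on all 14 arrays. None of the 19 tested for onion over Sd was affected, nor any of the 20 tested for YOd and the 19 for WOd. Of all genes, 1.25%, 4.45% and 1.19% were affected in these comparisons, so that a count of 0 in so short a list does not set it apart. Their median log2 ratio was 0.05 over the 7 pigs, beside 0.09 for all genes. Of 21 related cytokines and their receptors outside the IL symbols, 8 had a named probe. None of the 6 tested for onion over Sd and for YOd was affected, nor any of the 7 tested for WOd, beside the same shares of all genes.

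Of 21 genes known to respond to interleukins in the gut, 14 had a named probe and 13 were tested. With YOd 1 of the 13 was affected, 7.69% of them beside 4.45% of all genes, and a single gene does not set the list apart. CCL26, an eosinophil chemokine induced by IL-4 and IL-13, was lower with YOd by a log2 ratio of -0.93 (SE 0.29). It was lower in 3 of 3 pigs, with -0.84, -0.18 and -1.77, and its adjusted limma p was 0.389. In the WOd pigs its ratios were -1.05, -0.03, 1.20 and -1.23. The other 12 genes, among them REG3G and PIGR, were not affected by YOd. None of the 13 was affected over the 7 pigs or by WOd, beside 1.25% and 1.19% of all genes. Of the 40 markers of other cell types tested for YOd, 1 was affected, 2.5% of them beside 4.45% of all genes. This was the myeloid marker S100A9, which was higher (0.67, SE 0.27, adjusted limma p 0.389). None of the markers was affected over the 7 pigs or by WOd, beside the same 1.25% and 1.19% of all genes.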

How the data were processed

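Gene expression was measured on 14 arrays of 7 pigs (7 Sd, 3 YOd and 4 WOd arrays), grouped by the labels. Arrays of pig 3 were not used here. The authors deposited the scanner output, in which Feature Extraction gives each spot's processed intensity, an intensity after background subtraction on a linear scale, with flags for background, saturation and outliers. They also deposited processed log2 values, floored by the authors per their methods. The normalization of these log2 values is not given in the sources used here beyond the name RMA in the processing notes.

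Outlier spots were left out (5 to 462 per array), spots of a probe were averaged, each array was scaled to its 75th percentile, and values were floored at the pooled 40th percentile before log2 was taken. Probes were named through their RefSeq accession and the Sscrofa11.1 reference, used for names and gene order only. Genes entered a test when they passed the floor on no fewer arrays than the smaller group held and had no missing value. Each comparison was fitted over all such genes with limma (version 3.58.1, R 4.3.3), taking the pig as a block, since the methods state a paired analysis and both segments come from the same animal. Deviations from the group means correlated between both arrays of the same pig (r between 0.49 and 0.72). Called genes had an unadjusted p below 0.05 and a fold change above 1.5, and p-values were adjusted by Benjamini-Hochberg. Fold changes are on the floored log2 scale and understate changes of dim genes. The fit was tested on simulated data. Python 3.11.15 was used for the other steps.

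The members and lists (interleukin signalling, related cytokines, interleukin targets and markers of T cells, B and plasma cells, innate lymphocytes, myeloid and mast cells, epithelium, goblet cells, smooth muscle, endothelium and fibroblasts) were chosen with earlier results of these data known. Genes named with their values were members well above background on all 14 arrays, members called in any comparison, the 3 largest increases and decreases over the 7 pigs, and members with the same sign in all 7 pigs. Of the signalling and target lists only called genes were to be named. IL13RA2, IL1A, IL6R, IL18R1 and dim members, and markers, were named after their values were seen. Alternatives covered scaling, background correction, floor, filter, probe choice, the authors' log2 values, the pig and slide blocks and each pig left out. Normexp was run on the median spot intensity. Coordinates and sequences were not used here.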

Additional observations from a re-analysis of the deposited data

Results flagged for a closer look

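Values of the 22 tested genes were compared within the 7 Sd arrays, the 4 WOd arrays and the 7 ratios, 66 groups in all. By Dixon's criterion 6 values stood apart from the rest of their group. Its rate by chance of about 1 in 20 groups holds for independent, normally distributed values. Some groups here held values tied on the floor, and the ratios share the Sd levels, so that 6 of 66 cannot be set against that rate. Of the 6 values, 3 were on the Sd array of pig 8 or rested on it. IL13RA2 was at -1.03 on that array, the next Sd value being -3.16, and its ratio in pig 8 was -2.001. A second, dimmer IL13RA2 probe gave -0.06 for that ratio. IL6R was at -3.62 on the Sd array of pig 8, with the other Sd arrays at -4.32 or lower, and so close to the floor of -4.43. A pair of values rested on the Sd array of pig 6, where IL6ST was at 2.70, with a ratio of -1.15. A second IL6ST probe gave -1.14 for that ratio. The IL1B2 level of -2.16 on the WOd array of pig 7 stood below the other WOd arrays, which lay between -1.06 and -0.86.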

How the results depend on the processing

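The counts of called members were 0 in each comparison. They changed under 3 of 20 settings for onion over Sd, 7 of 16 for YOd, 2 of 17 for WOd and 11 of 20 for the difference between the onions. Not all of these settings are separate checks. The slide block and leaving out pigs 2 and 7 gave the same ratios, and for YOd so did leaving out pig 2. Without the pig as a block (the pairing left out) the counts were again 0 in all 4 comparisons, with a median ratio of 0.06, and limma then called 10 genes of the array for onion over Sd in place of 30. With slide and pig as blocks, 1 member was called for onion over Sd (IL6), beside 77 of 2400 genes of the array. For YOd 4 were called (IL13RA2, IL16, IL6 and IL29), beside 323 of 2449 genes. For the difference between the onions 3 were called (IL13RA2, IL16 and IL12RB1), beside 192 of 2502 genes. Without pigs 2 and 7 the counts were 1, 3 and 3, beside 78 of 2435, 324 of 2483 and 194 of 2544 genes. For YOd, 1 member was called without a floor and 1 with a floor at the 20th percentile (IL6 in both), beside 122 of 2449 and 123 of 2750 genes. Among genes well above background on all arrays 1 was called (IL29), beside 110 of 2360. For WOd, 1 was called with the lower floor (IL12RB2), beside 52 of 2772 genes. For the difference, 1 was called without scaling (IL7R), 1 with normexp (IL13RA2) and 1 with the lower floor (IL12RB2). These came beside 97 of 2498, 50 of 2539 and 89 of 2885 genes. Among genes well above background and with the mean of all probes 1 each was called (IL16 in both), beside 67 of 2109 and 61 of 2547 genes. With each pig left out in turn, counts ranged from 0 to 1 for onion over Sd, 0 to 3 for YOd, 0 to 1 for WOd and 0 to 3 for the difference. In YOd the 3 members without pig 2 were IL13RA2, IL16 and IL29, beside 324 of 2483 genes. IL6 was called in YOd without pig 4, beside 59 of 2474 genes. The median ratio of members stayed within the spread between pigs (SD 0.18) under every setting run, from -0.09 without scaling to 0.11 without pig 8. Above the floor on all arrays were 15 members, as many as well above background.

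Of the 18 named members, 9 kept the sign of their onion ratio under every setting run (IL1B, IL1B2, IL7, IL15, IL2RG, IL7R, IL13RA1, IL6 and IL29), though not its size. With each pig left out, the ratio ranged from 0.19 to 0.42 for IL1B (lowest without pig 5), from 0.073 (pig 5) to 0.34 (pig 7) for IL1B2, from -0.29 (pig 6) to -0.035 (pig 5) for IL7, from 0.042 (pig 4) to 0.32 (pig 8) for IL15, from -0.31 to -0.13 (pig 5) for IL2RG, from 0.14 (pig 7) to 0.29 for IL7R, from -0.18 (pig 4) to -0.068 (pig 6) for IL13RA1, from 0.30 (pig 1) to 0.55 for IL6 and from -0.85 (pig 5) to -0.18 (pig 4) for IL29. IL1B2 without pig 7, and IL15 and IL1B without pig 8, then passed the unadjusted limma p but not the fold threshold. Without scaling, IL1B2 was at 0.016, IL15 at 0.0053 and IL2RG at -0.38, and normexp gave -0.024 for IL2RG. The other 9 had ratios near 0 whose sign turned. Without scaling, the ratio was -0.081 for IL18, -0.057 for IL4R, -0.090 for IL5, -0.068 for IL27, -0.15 for IL6ST, -0.090 for IL12RB1 and -0.14 for IL10. With the mean of all probes it was -0.0074 for IL5, -0.061 for IL6ST and -0.038 for IL10. With the authors' log2 values it was -0.039 for IL27, -0.020 for IL6ST and -0.012 for IL10. With the slide block, and equally without pigs 2 and 7, it was -0.033 for IL27, -0.13 for IL6ST, -0.18 for IL10 and 0.17 for IL10RB. Quantile normalization gave -0.022 for IL6ST, and normexp -0.088 for IL6ST, 0.0019 for IL10RB and 0.017 for IL16. With each pig left out, the ratio ranged from -0.022 to 0.15 for IL18, from -0.027 to 0.25 for IL4R, from -0.0029 to 0.10 for IL5, from -0.0038 to 0.18 for IL27, from -0.11 to 0.19 for IL6ST, from -0.047 to 0.18 for IL12RB1, from -0.12 to 0.13 for IL10, from -0.11 to 0.12 for IL10RB and from -0.16 to 0.26 for IL16. The cause of these turns was not tested. Signal over background limits the dim members, 13 of which could not be tested over the 7 pigs.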
